A study of Mus musculus with 6 samples.

Results

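The report describes 10 genes of cellular iron handling in the brain microvasculature of the mouse: *Tfrc*, *Steap3*, *Slc11a2* and *Trf* of iron uptake and carriage, *Slc40a1* and *Heph* of export, *Ftl1* and *Fth1* of storage, *Ireb2* of the sensing of iron and *Hmox1* of haem breakdown. They were matched by symbol, and all 10 were found among the 32287 genes counted. The list was drawn up with earlier results of these data known. Microvascular fragments were pulled from 1 hemisphere of the cerebrum with beads carrying antibody to CD31, an endothelial surface protein, digested to single cells and sequenced by the 10x Genomics droplet method, with 1 library per mouse. The groups were 3 untreated male WT mice (C57BL/6J) and 3 untreated male *TgApp* ArcSwe mice, all 12 months old. *TgApp* ArcSwe mice, called ArcSwe below, carry a transgene of the human amyloid precursor protein with the Arctic and Swedish mutations, and the transgene in this line is driven by a neuronal promoter. Mouse *App* is therefore no check of the genotype in these cells, and it overlapped between the groups in capillary cells, with 1780, 1692 and 1595 CPM in WT mice and 1729, 1777 and 1564 CPM in ArcSwe mice.

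Iron crosses the blood-brain barrier through its endothelial cells. Transferrin-bound iron is taken up from the blood by the transferrin receptor (*Tfrc*), reduced in endosomes by the ferrireductase STEAP3, carried into the cytosol by the divalent metal transporter DMT1 (*Slc11a2*), stored in shells of ferritin heavy (*Fth1*) and light (*Ftl1*) chains, and leaves the cell through ferroportin (*Slc40a1*), the only known cellular iron exporter, aided by ferroxidases such as hephaestin (*Heph*). When iron is scarce, the iron regulatory proteins, one of them encoded by *Ireb2*, bind hairpins in messenger RNA called iron-responsive elements: a hairpin before the coding sequence of ferritin or ferroportin holds back translation, and hairpins after the coding sequence of *Tfrc* protect its messenger RNA from decay. Counts of messenger RNA can therefore show the second kind of control and not the first.

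Such hairpins are printed because the control by iron described above acts through sites of this kind. A search of the sense strand of every transcript of 21901 protein-coding genes in the mm10 annotation, for a C, a stem of 5 bases, the loop CAGTGN and 5 bases pairing with the stem, matched 294 genes (1.34%) and 4 of the 10 members. The letters of the C and the loop without the pairing matched 67.2% of genes and all 10 members. Each line gives the hairpin with 5 flanking bases on each side, 5′ to 3′ on the transcript strand, with the loop in capitals.

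*Fth1*, 5′ UTR: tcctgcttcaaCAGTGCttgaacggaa
*Ftl1*, 5′ UTR: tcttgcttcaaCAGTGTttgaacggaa
*Slc40a1*, 5′ UTR: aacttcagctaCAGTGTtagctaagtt
*Tfrc*, 3′ UTR, most upstream site: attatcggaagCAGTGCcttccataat
*Tfrc*, 3′ UTR, next site: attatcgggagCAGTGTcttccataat
*Tfrc*, 3′ UTR, next site: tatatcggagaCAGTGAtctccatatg
*Tfrc*, 3′ UTR, most downstream site: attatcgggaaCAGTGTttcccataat

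The hairpins lie, without their flanks, at chr19:9982738-9982754 on the plus strand for *Fth1*, chr7:45459785-45459801 on the minus strand for *Ftl1* and chr1:45925471-45925487 on the minus strand for *Slc40a1*. The 4 *Tfrc* hairpins lie on the plus strand at chr16:32631225-32631241, chr16:32631604-32631620, chr16:32631669-32631685 and chr16:32631716-32631732. The matches are of letters and pairing and no binding was measured. The other 6 members, among them *Slc11a2*, had no match to these letters with this pairing, and whether they answer to iron was not tested.

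The 6 libraries held 49059 cells, from 2907 in ArcSwe replicate 2 to 14928 in ArcSwe replicate 3, with 26436229 to 59161203 UMIs, or unique molecules, per library, and 44112 cells passed the filters. Any 2 libraries shared 4 to 42 cell barcodes, at most 0.55% of the smaller library. Cells were clustered without the iron genes named here and classes were called from markers, so the class names are rebuilt and a class is X-like in that sense. After removal of endothelial cells with a UMI of the microglial genes *Cx3cr1* or *Aif1*, there were 13116 capillary, 4105 arterial, 3704 venous and 629 fenestrated endothelial cells, 462 pericytes, 3188 smooth muscle cells, 6578 microglia and 41 perivascular macrophages. RNA of other cells was unevenly spread over the libraries. The summed choroid plexus markers in capillary cells were 57.1, 98.2 and 1243 CPM in WT mice and 191, 106 and 590 CPM in ArcSwe mice, and the 7 of 9 microglial markers left in these cells summed to 188, 236 and 729 CPM and to 425, 284 and 1021 CPM, so that WT replicate 3 and ArcSwe replicate 3 stood highest on both lists. Levels are given below as CPM (counts per 1000000), the share of a gene in all UMIs that the cells of a class gave in a mouse, in the order of replicates 1, 2 and 3. Contrasts between classes and between genotypes were tested with edgeR's quasi-likelihood test on the sums per mouse, and adjusted p-values are Benjamini-Hochberg values over all genes tested, with a threshold of 0.05.

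*Tfrc*, the receptor for transferrin-bound iron, was a capillary and venous gene. In capillary cells it stood at 484, 388 and 349 CPM in WT mice and at 576, 575 and 407 CPM in ArcSwe mice. In venous cells it stood at 480, 433 and 376 CPM in WT mice and at 565, 608 and 380 CPM in ArcSwe mice. In arterial cells it stood at 108, 91.3 and 80.0 CPM in WT mice and at 105, 115 and 78.8 CPM in ArcSwe mice. Every capillary and venous value lay above every arterial value, while the capillary and venous values overlapped and replicate 3 of each genotype was the lowest in all 3 zones. The capillary level was 4.65-fold the arterial level (log2 fold change 2.22, SE 0.05, adjusted p = 4.31e-22 in edgeR) and 10.2-fold that of fenestrated cells (log2 fold change 3.35, SE 0.14, adjusted p = 1.00e-16 in edgeR). Against venous cells the log2 fold change of *Tfrc* was -0.08, with an SE of 0.03 and an adjusted p of 0.10 in edgeR. Below the barrier zones the levels were close together, with means over the 6 mice of 45 CPM in fenestrated cells, 43.3 in pericytes, 37.9 in smooth muscle cells and 27.4 in microglia, and the ranges of neighbouring classes in this order overlapped.

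Ferroportin RNA (*Slc40a1*) followed the same zones. It stood at 373, 338 and 318 CPM in WT capillary cells and at 411, 476 and 374 CPM in ArcSwe capillary cells. Venous cells held 434, 375 and 385 CPM in WT mice and 471, 566 and 375 CPM in ArcSwe mice, and arterial cells 129, 138 and 98.7 CPM and 143, 174 and 121 CPM. Capillary values lay above all arterial values, and each mouse had more *Slc40a1* in venous than in capillary cells. On the log2 scale the change was 1.48 (SE 0.05, adjusted p = 5.59e-19 in edgeR) in capillary against arterial cells and -0.23 (SE 0.04, adjusted p = 8.91e-06 in edgeR) in capillary against venous cells. Fenestrated cells, led here by *Plvap*, the protein of endothelial diaphragms, held 6.70 to 45.8 CPM, from 3 to 35 UMIs per mouse, and the capillary level was 14.7-fold higher (log2 fold change 3.88, SE 0.18, adjusted p = 8.00e-16 in edgeR). The plot of levels by class shows both genes dropping together from the barrier zones to fenestrated and mural cells.

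**Figure D1:**
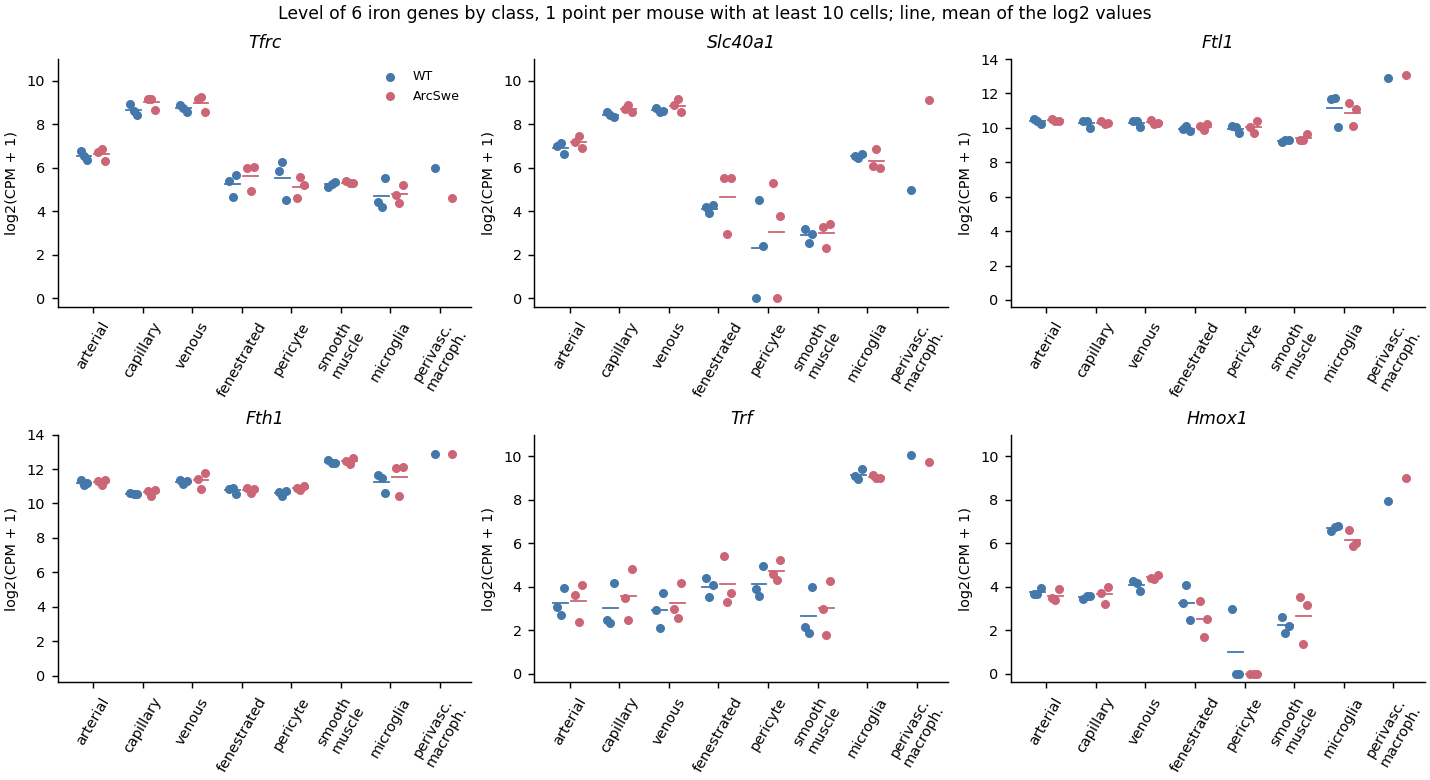
Level of 6 of the 10 genes in 8 cell classes. The y axis is log2(CPM + 1) and each point is 1 mouse with at least 10 cells of the class (blue, WT; red, ArcSwe; horizontal lines, means of the log2 values); *Tfrc* and *Slc40a1* were high in capillary and venous cells, *Trf* and *Hmox1* in microglia and perivascular macrophages, and *Fth1* was higher in smooth muscle cells than in pericytes.

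The balance of the receptor and the exporter differed between zones. The ratio of *Tfrc* to *Slc40a1* UMIs was 1.3, 1.15 and 1.10 in WT and 1.40, 1.21 and 1.09 in ArcSwe capillary cells. In arterial cells it was 0.837, 0.662 and 0.810 in WT and 0.735, 0.659 and 0.651 in ArcSwe mice, below 1 in all 6. Microglia had the lowest ratios of the classes with enough UMIs of both genes, from 0.170 to 0.579. The ratio compares the RNA counts of 2 different genes, so its change between classes is the measurement and not its distance from 1. Between genotypes the log2 ratio differed by -0.17 in arterial, 0.06 in capillary, 0.02 in venous cells and 0.31 in microglia (ArcSwe minus WT), with exact two-sided permutation p-values of 0.2, 0.7, 0.8 and 0.8, where 0.1 is the smallest that 3 against 3 mice allow.

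The shares of cells with a UMI gave the same order of zones at equal depth. With each cell thinned to 1000 UMIs, *Tfrc* was seen in 30.3% ± 5.58 (SD, n = 6 mice) of capillary, 31.5% ± 5.88 of venous and 7.41% ± 1.60 of arterial cells, against 3.44% ± 0.672 of smooth muscle cells and 2.45% ± 1.04 of microglia. *Slc40a1* was seen in 25.7% ± 3.09 of capillary, 27.7% ± 4.87 of venous, 9.63% ± 1.47 of arterial and 7.79% ± 1.87 of microglial cells, against 0.642% ± 0.312 of smooth muscle cells. Smooth muscle cells stand here for a class with little of the exporter, and their median depth before thinning, 4395 to 7915 UMIs per mouse, was in each mouse above that of its capillary cells, 2453 to 4632 UMIs. Without thinning the share of capillary cells with a *Tfrc* UMI was 58.8% ± 10.3 and with a *Slc40a1* UMI 58.6% ± 9.28. With 2000 UMIs per cell the shares for *Tfrc* were 45.8% in capillary, 46.9% in venous and 13.1% in arterial cells, and those for *Slc40a1* were 44.3%, 47.8% and 17.9%, with 13% in microglia.

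*Steap3*, which reduces ferric iron in the endosome after uptake, was less abundant than these and had the same arterial minimum. It stood at 18.7, 17.3 and 17.6 CPM in WT and at 22.8, 23.8 and 15.7 CPM in ArcSwe capillary cells. Arterial cells held 8.55, 6.52 and 7.07 CPM and 6.4, 5.80 and 4.80 CPM, below every capillary value. The log2 fold change of capillary against arterial cells was 1.5 (SE 0.13, adjusted p = 3.59e-10 in edgeR), and against venous cells it was 0.17 (SE 0.10, adjusted p = 0.195 in edgeR). Capillary cells also had more *Steap3* than fenestrated cells (log2 fold change 1.76, SE 0.31, adjusted p = 4.29e-05 in edgeR), which held 1 to 7 UMIs per mouse.

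*Slc11a2*, the transporter that moves iron out of the endosome, did not share the arterial minimum to a degree that passed the test. It stood at 12.5, 13 and 12.5 CPM in WT and at 11.9, 13.6 and 12.9 CPM in ArcSwe capillary cells, and at 9.14, 7.55 and 11.5 CPM and 11.7, 12.1 and 9.40 CPM in arterial cells. Capillary values lay within a narrow band and above all but 1 of the arterial values (log2 fold change 0.28, SE 0.12, adjusted p = 0.0669 in edgeR), with a range of -0.12 to 0.37 over 10 alternatives, of which 1 passed the test. Venous cells had more, 16.9, 19.1 and 22.3 CPM in WT and 18, 20.3 and 19.0 CPM in ArcSwe mice, above all capillary values. Capillary against venous cells gave a log2 fold change of -0.64 (SE 0.10, adjusted p = 4.62e-06 in edgeR).

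*Heph*, the membrane ferroxidase, was scarce in all classes. Capillary cells held 20 to 31 UMIs per mouse, 3.49 to 5.34 CPM, and venous cells 4.50 to 7.61 CPM, with the capillary level lower (log2 fold change -0.72, SE 0.19, adjusted p = 0.00341 in edgeR). The call was lost in DESeq2. No *Heph* UMI was seen in pericytes or perivascular macrophages, 3 were seen in smooth muscle cells and 5 in microglia. In the 41 perivascular macrophages, a count of 0 among 116010 UMIs had an exact 95% Poisson upper bound of 31.8 CPM, so a level like that of venous cells was not excluded there.

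The ferritin chains moved apart from each other along the vessel. *Fth1*, whose heavy chain oxidizes iron for storage, stood at 1535, 1508 and 1472 CPM in WT and at 1688, 1389 and 1779 CPM in ArcSwe capillary cells. It was higher in arterial cells, with 2603, 2165 and 2305 CPM in WT and 2566, 2196 and 2653 CPM in ArcSwe mice. Venous cells held 2597, 2264 and 2519 CPM in WT and 1832 to 3485 CPM in ArcSwe mice, also above every capillary value. The log2 fold change was -0.67 (SE 0.04, adjusted p = 2.95e-14 in edgeR) in capillary against arterial cells and -0.75 (SE 0.04, adjusted p = 1.30e-13 in edgeR) in capillary against venous cells. *Ftl1*, the light chain, differed far less between zones, with 1025 to 1358 CPM in capillary, 1176 to 1461 CPM in arterial and 1076 to 1401 CPM in venous cells. The 3 ranges overlapped, and within mice *Ftl1* was lower in capillary than in arterial cells by 0.16 on the log2 scale (SE 0.03, adjusted p = 1.97e-04 in edgeR).

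Smooth muscle cells had the most uneven ferritin RNA of all classes. *Fth1* stood at 5799, 5175 and 5240 CPM in WT and at 5739, 4989 and 6373 CPM in ArcSwe smooth muscle cells, while pericytes, the mural cells of capillaries, held 1645, 1366 and 1688 CPM and 1912, 1784 and 2112 CPM. *Ftl1* went the other way, with 586 to 786 CPM in smooth muscle cells and 831 to 1377 CPM in pericytes. The groups did not overlap for either gene. Pericytes against smooth muscle cells gave a log2 fold change of -1.95 for *Fth1* (SE 0.10, adjusted p = 2.23e-29 in edgeR) and 0.41 for *Ftl1* (SE 0.10, adjusted p = 3.13e-04 in edgeR).

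The ratio of *Fth1* to *Ftl1* UMIs set this difference within each mouse. In smooth muscle cells it was 9.90, 8.40 and 8.19 in WT and 9.09, 8.10 and 8.11 in ArcSwe mice. The other 6 classes with both chains counted in all mice stayed below 3 in each mouse: capillary cells lay between 1.12 and 1.44, arterial cells between 1.58 and 1.96, venous cells between 1.51 and 2.79, pericytes between 1.27 and 2.15, fenestrated cells between 1.57 and 1.92, and microglia between 0.851 and 2.02. Between genotypes the log2 ratio differed by at most 0.21 in the 6 vascular classes and by 0.55 in microglia, and the exact two-sided permutation p was between 0.2 and 1.0 in all 7 classes.

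**Figure D2:**
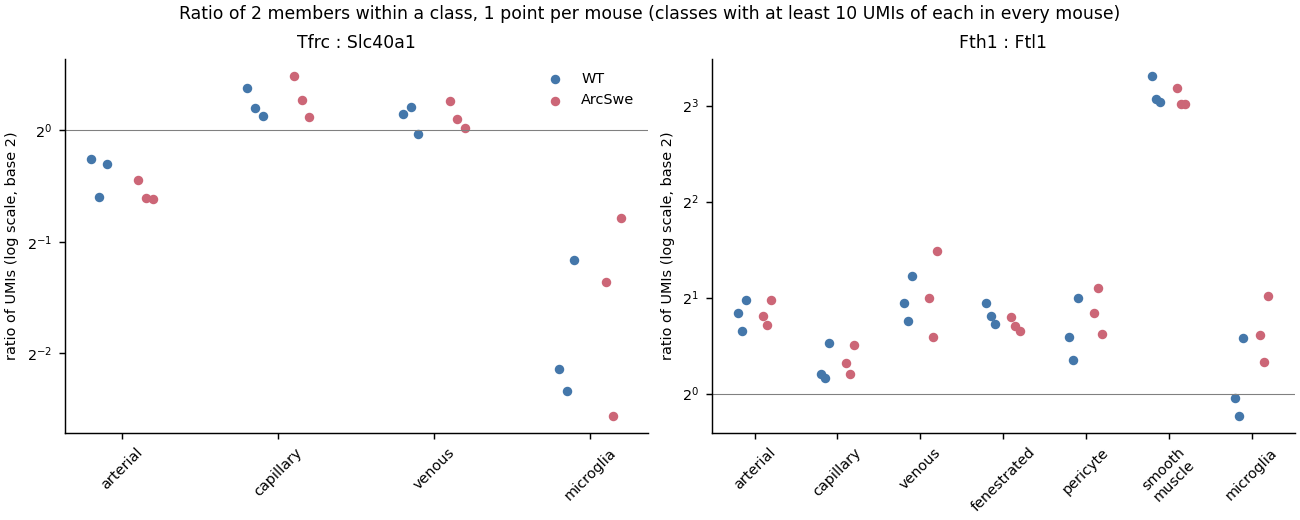
Ratios of *Tfrc* to *Slc40a1* UMIs (left) and *Fth1* to *Ftl1* UMIs (right) by class on a log axis of base 2, 1 point per mouse (blue, WT; red, ArcSwe), for classes with at least 10 UMIs of both genes in every mouse. Arterial cells and microglia lay below 1 for *Tfrc* to *Slc40a1*, and smooth muscle cells stood apart at 8.10 to 9.90 for *Fth1* to *Ftl1*.

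Over all 10 genes, the zones gave these counts. Of the 10, 3 were higher and 2 lower in capillary than in arterial cells, where 24.5% of the 12250 genes tested were called higher and 24.6% lower. Against venous cells 1 was higher and 5 were lower, where 14.9% of all genes were called higher and 17.8% lower. Against fenestrated cells 4 were higher and 3 lower, with 20.5% and 21.2% of all genes. For a set of 10 genes most of these counts lay near the background shares. Furthest above them were the 5 lower than in venous cells and the 4 higher than in fenestrated cells. Whether these exceed the background was not tested, and the calls against fenestrated cells are partly unstable. The median log2 fold change of the members was 0.22, -0.15 and 0.37 in the 3 contrasts, against 0.02, 0.01 and 0.03 for all genes tested.

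Some of these calls rested on few counts or single libraries. *Trf* was higher in capillary than in venous cells (log2 fold change 0.36, SE 0.14, adjusted p = 0.0449 in edgeR) and lower than in fenestrated cells (log2 fold change -0.92, SE 0.33, adjusted p = 0.0283 in edgeR), and both calls were lost in DESeq2, in WT mice alone and without ArcSwe replicate 1, without which the latter value was -0.40. The former was also lost without replicate 3 of either genotype and the latter without WT replicate 1 or 2. *Heph* and *Fth1* were called lower in capillary than in fenestrated cells, by 1.04 and 0.19 on the log2 scale, and both calls were lost in WT mice alone, without WT replicate 2 and without ArcSwe replicate 2. That of *Heph* was also lost without WT replicate 3 and that of *Fth1* without WT replicate 1. Over all alternatives *Trf* kept its call in 4 of 10 in each of its 2 contrasts. Against fenestrated cells *Heph* kept it in 5 of 9 and *Fth1* in 5 of 10. *Ftl1*, called higher in capillary than in fenestrated cells, kept its call in 9 of 10. Erythroid RNA was high in fenestrated cells of replicates 1 and 2 of both genotypes. The sums of 4 haemoglobin genes there were 2543 to 30058 CPM, against 67.0 to 130 CPM in capillary cells. In replicate 3 of WT and ArcSwe mice the sums were 420 and 418 CPM, below the 474 and 721 CPM in capillary cells. The part of erythroid RNA in the results with fenestrated cells was not tested.

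**Figure D3:**
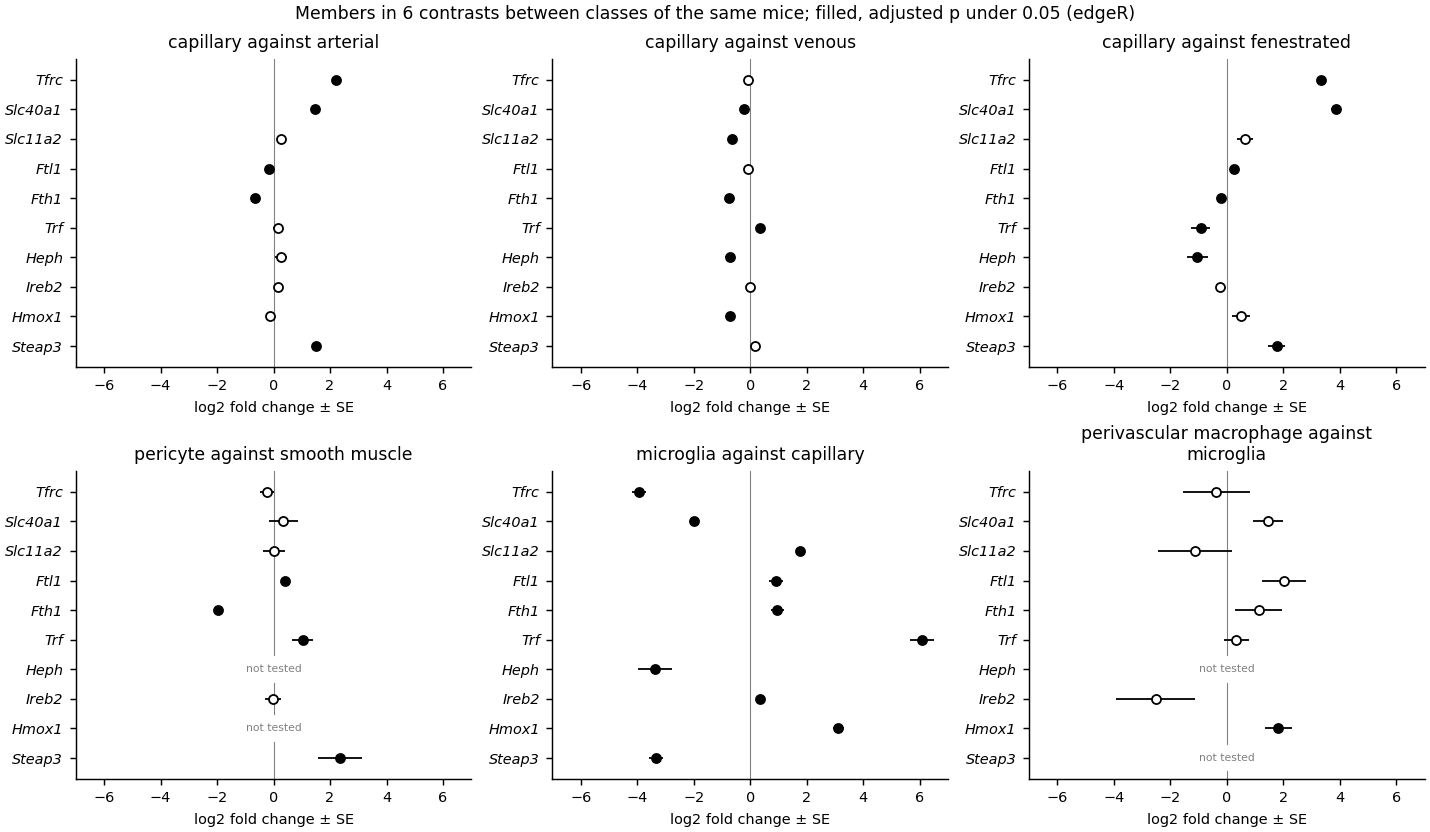
The 10 genes in 6 contrasts between classes of the same mice, as log2 fold change of the class named first against the other, with bars of 1 SE (filled points, adjusted p under 0.05 in edgeR; genes marked not tested had too few counts). *Tfrc* and *Slc40a1* were higher in capillary than in arterial and fenestrated cells and lower in microglia than in capillary cells, where *Trf* was higher by 6.07.

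In mural cells the remaining members were low. *Slc40a1* had 0 to 6 UMIs per mouse in pericytes and 4.03 to 9.72 CPM in smooth muscle cells. *Steap3* was higher in pericytes (log2 fold change 2.36, SE 0.77, adjusted p = 0.0103 in edgeR), from 10 UMIs in pericytes and 20 in smooth muscle cells over all mice, and the call was lost without ArcSwe replicate 3, the library with 220 of the 462 pericytes. Without ArcSwe replicate 1, in WT mice alone and after thinning, *Steap3* had too few counts to be tested. *Trf* was also called higher in pericytes (log2 fold change 1.03, SE 0.37, adjusted p = 0.0219 in edgeR), and this call was lost without ArcSwe replicate 3 and in WT mice alone. Of 8 members tested 3 were higher in pericytes and 1 was lower, where 17.1% of the 10094 genes were called higher and 20.6% lower.

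Microglia, the resident macrophages of the brain, came with the vessels, and all 10 members differed between them and capillary cells. Here 36.1% of the 13141 genes tested were called higher in microglia and 39.2% lower, so most genes differed. *Trf*, the gene of transferrin itself, stood at 542, 503 and 675 CPM in WT and at 568, 506 and 509 CPM in ArcSwe microglia. In capillary cells it stood at 4.59, 4.02 and 17.3 CPM in WT and at 10.1, 4.54 and 26.8 CPM in ArcSwe mice. The microglial values lay far above all capillary values (log2 fold change 6.07, SE 0.42, adjusted p = 4.13e-07 in edgeR). The 2 highest capillary values came from replicate 3 of each genotype, the mice with the most choroid plexus and microglial RNA in these cells. Choroid plexus epithelium itself held 193 to 353 CPM of *Trf* in the 5 mice with at least 10 such cells. The part of either RNA in the capillary values was not tested.

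The RNA for haem breakdown also differed between the classes. *Hmox1*, the inducible haem oxygenase, stood at 95.1, 106 and 109 CPM in WT and at 96.6, 57.3 and 64.1 CPM in ArcSwe microglia, against 8.28 to 15 CPM in capillary cells, and the values did not overlap (log2 fold change 3.12, SE 0.19, adjusted p = 1.57e-07 in edgeR). Along the vessel, *Hmox1* was lower in capillary than in venous cells by 0.73 on the log2 scale (SE 0.11, adjusted p = 5.53e-06 in edgeR), with 12.9 to 22.1 CPM in venous cells. *Slc11a2* was higher in microglia than in capillary cells (log2 fold change 1.75, SE 0.14, adjusted p = 1.15e-06 in edgeR), with 29.8 to 53.0 CPM. *Ireb2*, which encodes an iron regulatory protein, varied little along the vessel, with 30 to 49.7 CPM in the arterial, capillary and venous cells of all mice, and its higher level in microglia (log2 fold change 0.36, SE 0.12, adjusted p = 0.0180 in edgeR) was 0.06 without the low-ribosomal microglia described below.

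Unlike *Trf* and *Slc11a2*, the other genes of uptake and export, *Tfrc*, *Steap3*, *Slc40a1* and *Heph*, were lower in microglia than in capillary cells. *Tfrc* stood at 20.7, 17.3 and 44.5 CPM in WT and at 26.0, 19.8 and 36.2 CPM in ArcSwe microglia (log2 fold change -3.93, SE 0.24, adjusted p = 1.78e-07 in edgeR). The highest 2 values came from replicate 3 of each genotype, in which the summed endothelial markers in microglia were also highest, 584 and 1253 CPM, against 148 to 497 CPM in the other mice. *Slc40a1* stood at 91.0, 87.6 and 99.5 CPM in WT and at 66.7, 117 and 62.5 CPM in ArcSwe microglia, all below every capillary value (log2 fold change -1.99, SE 0.16, adjusted p = 1.09e-06 in edgeR). *Steap3* and *Heph* were at 0.524 to 2.22 CPM and 0 to 1.98 CPM in microglia, with log2 fold changes of -3.33 and -3.38.

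Ferritin RNA differed between clusters of microglia. A group of 4438 of the 6578 microglia fell in 2 clusters with a median ribosomal share under 3%, whose median UMI count was 0.341 and 0.355 of that of their own libraries, and whose 10 leading genes held no microglial marker although all 9 markers were detected. They made up 28.0%, 34.5% and 94.6% of WT microglia and 69.4%, 94.1% and 78.3% of ArcSwe microglia. The study removed a microglial cluster low in ribosomal and high in mitochondrial RNA, whereas the low-ribosomal cells stayed in the main fits here. *Ftl1* was 3613 CPM over the remaining microglia and 858 CPM over the low-ribosomal ones, and *Fth1* was 4382 and 954 CPM. Both ferritin chains were lower in the low-ribosomal cells of all 6 mice. *Trf* was 542, 507 and 624 CPM in the remaining and 540, 480 and 687 CPM in the low-ribosomal microglia of WT mice, and 662, 895 and 651 CPM against 377, 407 and 374 CPM in ArcSwe mice. It was thus lower in low-ribosomal cells of all 3 ArcSwe mice and of 2 WT mice, where the gap was small. *Slc40a1* was 92.6, 84.7 and 91.2 CPM against 76.6, 106 and 101 CPM in WT mice and 58.8, 38.9 and 46.2 CPM against 82.7, 137 and 78.1 CPM in ArcSwe mice. It was higher in low-ribosomal cells of all mice but WT replicate 1, and whether these gaps differ between genotypes was not tested.

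**Figure D4:**
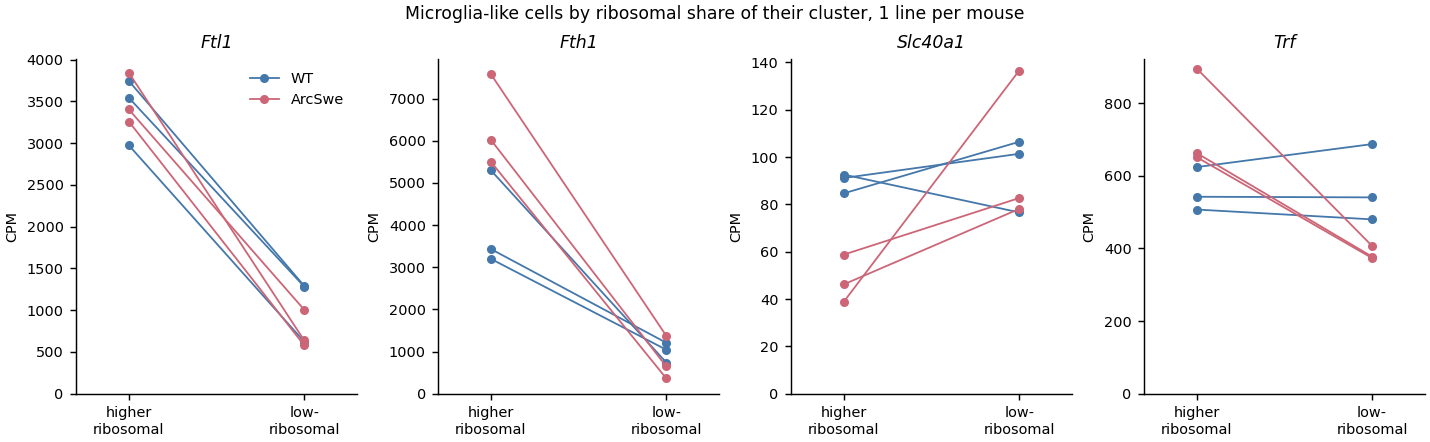
Level in CPM of *Ftl1*, *Fth1*, *Slc40a1* and *Trf* in microglia of clusters with a higher ribosomal share (left in each panel) and in low-ribosomal clusters (right), 1 line per mouse (blue, WT; red, ArcSwe). Both ferritin chains fell in all 6 mice, while *Slc40a1* rose in 5 of 6; ArcSwe replicate 2 had 13 cells and WT replicate 3 had 75 on the left.

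Over all microglia *Ftl1* stood at 3320, 3421 and 1056 CPM in WT and at 2781, 1125 and 2175 CPM in ArcSwe mice. The 2 lowest values were those of WT replicate 3 and ArcSwe replicate 2, the mice with the highest share of low-ribosomal cells. Against capillary cells *Ftl1* and *Fth1* were higher in microglia, with log2 fold changes of 0.90 (SE 0.25, adjusted p = 0.00733 in edgeR) and 0.96 (SE 0.24, adjusted p = 0.00401 in edgeR). Without the low-ribosomal cells these were 1.57 and 1.77, and with every cell thinned to 1000 UMIs they were 0.56 and 0.37 and no longer passed the test.

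Perivascular macrophages, which sit between vessel and parenchyma and clear haemoglobin, were too few for a comparison of genotypes. There were 41, with 10 or more only in WT replicate 3 (13 cells) and ArcSwe replicate 3 (15 cells), and the contrast with microglia rested on these 2 mice. *Hmox1* stood at 247 CPM in macrophages and 109 CPM in microglia of the former, from 8 UMIs in macrophages, and at 514 and 64.1 CPM in the latter, from 22 UMIs. Macrophages were higher in both mice (log2 fold change 1.82, SE 0.48, adjusted p = 0.00422 in edgeR), which was not called in DESeq2 (adjusted p = 0.123) or after thinning (adjusted p = 0.636 in edgeR). *Hmox1* was the 1 member of 8 tested that was called higher and none was lower, where 1.77% of 8765 genes were called higher and 4.47% lower and the median of all genes was -0.58 on the log2 scale.

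Ferritin and ferroportin in these macrophages did not pass the test in the same fit. *Ftl1* stood at 7501 and 8534 CPM in macrophages and at 1056 and 2175 CPM in microglia of the same mice (log2 fold change 2.01, SE 0.78, adjusted p = 0.114 in edgeR), and it was called by DESeq2 (adjusted p = 2.04e-05). *Slc40a1* stood at 30.9 CPM in WT replicate 3, from 1 UMI, and at 561 CPM in ArcSwe replicate 3, from 24 UMIs (log2 fold change 1.47, SE 0.53, adjusted p = 0.0758 in edgeR). The exporter was thus far apart in the 2 mice, on counts too low to compare them. Against microglia without the low-ribosomal cells its log2 fold change was 2.25 (adjusted p = 5.16e-04 in edgeR).

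Between genotypes, no member passed the test in any class. The question was whether the RNA levels of these genes differ between ArcSwe and WT mice. The paper reports plaques as well as amyloid on vessels in ArcSwe mice. Amyloid was not measured in the cells counted here, so the fits do not single out vessel amyloid. Of the 10 members, 10 were tested in arterial, capillary and venous cells, 4 in fenestrated cells, 2 in pericytes and 8 each in smooth muscle cells and microglia, and 0 had an adjusted p under 0.05 in edgeR. Over all genes the share called was 0.00903% in arterial cells, 0.184% in microglia and 0% in the other 5 classes, so calls were rare for any gene. An unadjusted p under 0.05 was found for 1 member in capillary cells and for 0 in the other 6 classes, where 4.46% of all genes in arterial, 4.91% in capillary, 3.99% in venous and 4.47% in fenestrated cells, 3.77% in pericytes, 3.85% in smooth muscle cells and 10.5% in microglia had one. DESeq2 called 0 members in any class. Of the 789 tests of members for genotype or its difference between classes under other settings 0 passed, with a smallest adjusted p of 0.108.

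The 1 member was *Slc40a1* in capillary cells. Its values of 373, 338 and 318 CPM in WT and 411, 476 and 374 CPM in ArcSwe mice did not overlap, by a margin of about 1 CPM between WT replicate 1 and ArcSwe replicate 3. The log2 fold change was 0.31 (SE 0.12), with an unadjusted edgeR p of 0.0349 and an adjusted p of 0.976. *Tfrc* had a log2 fold change of 0.37 in capillary cells (SE 0.17, adjusted p = 0.976 in edgeR), and its groups overlapped since WT replicate 1 lay above ArcSwe replicate 3. In venous and arterial cells *Slc40a1* differed by 0.26 and 0.28 and *Tfrc* by 0.29 and 0.11 on the log2 scale, with adjusted p-values of 1.00 in edgeR.

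The direction was upward for most members in endothelial cells, within error. The log2 fold change was above 0 for all 10 members in capillary cells, where the median was 0.19 against 0.00 for all genes, and for 7 of 10 in arterial and venous cells. The largest value in any class was that of *Hmox1* in smooth muscle cells, 0.93 with an SE of 0.50 from 2 to 29 UMIs per mouse. In endothelial cells *Trf* had the largest, 0.79 with an SE of 0.65 in capillary cells, and without ArcSwe replicate 3 it was -0.12 and without WT replicate 3 it was 1.74. *Tfrc* in fenestrated cells followed, 0.50 with an SE of 0.34. The ferritin chains had log2 fold changes of 0.04 to 0.32 for *Fth1* and 0.06 to 0.16 for *Ftl1* in the 6 vascular classes, with SEs of 0.12 to 0.22. The highest was that of *Fth1* in pericytes, whose values given above did not overlap between the genotypes (log2 fold change 0.32, SE 0.19, adjusted p = 0.976 in edgeR), and it was above 0 in all 12 alternatives, from 0.13 to 0.37.

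**Figure D5:**
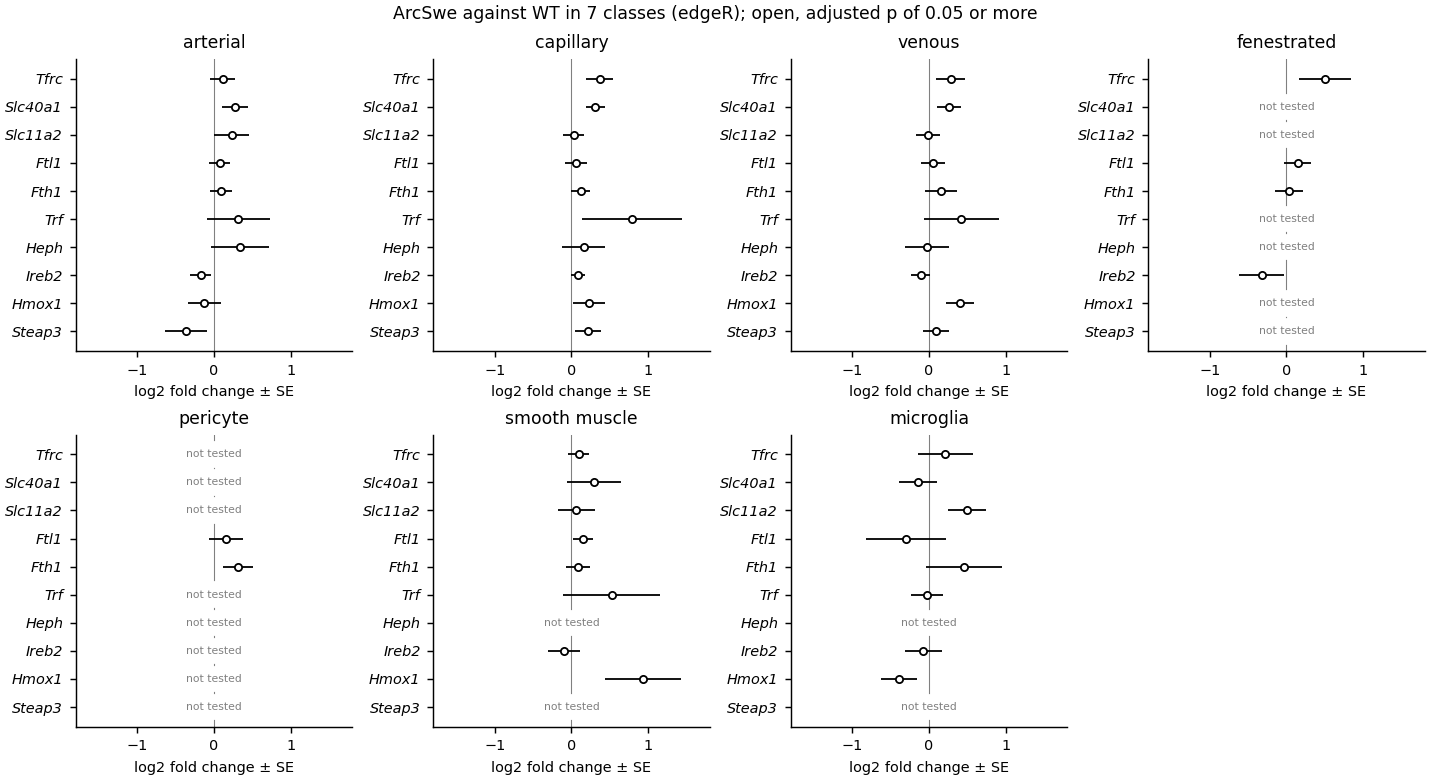
ArcSwe against WT in 7 classes, as log2 fold change with bars of 1 SE from edgeR. All points are open, since none had an adjusted p under 0.05; genes marked not tested had too few counts in the class.

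In microglia the genotype values changed with the low-ribosomal cells. With all cells *Fth1* had a log2 fold change of 0.45 (SE 0.49), *Ftl1* -0.30 (SE 0.52), *Slc40a1* -0.14 (SE 0.25), *Slc11a2* 0.50 (SE 0.25), *Hmox1* -0.39 (SE 0.24) and *Trf* -0.02 (SE 0.21), with adjusted p-values of 0.531 or more in edgeR. Without the low-ribosomal cells *Fth1* stood at 3430, 3197 and 5296 CPM in WT and at 6017, 5497 and 7574 CPM in ArcSwe mice. *Slc40a1* stood at 92.6, 84.7 and 91.2 CPM in WT and at 58.8, 38.9 and 46.2 CPM in ArcSwe mice. The groups did not overlap for either gene, the heavy chain being higher and the exporter lower in ArcSwe mice, and neither passed the test, with log2 fold changes of 0.84 (SE 0.26, adjusted p = 0.110 in edgeR) and -0.65 (SE 0.20, adjusted p = 0.108 in edgeR). In this setting 382 of all genes were called, ArcSwe replicate 2 was left with 13 cells and 4 *Slc40a1* UMIs, and *Trf* turned to 0.52 (SE 0.19, adjusted p = 0.170 in edgeR).

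Among the remaining microglia 1 cluster came mostly from 2 ArcSwe libraries. It held 555 cells, 130 and 393 of them from ArcSwe replicates 1 and 3 and 20 from WT replicate 3, and *Cst7*, *Gpr84* and *Tnf* were among its 10 leading genes. In it *Fth1* was 7772 CPM and *Slc40a1* 28.8 CPM, against 3340 and 89.7 CPM in the cluster of 1518 cells led by *Cx3cr1* and *P2ry12*. *Ftl1* was 3401 and 3602 CPM. The cluster of 1518 cells held 712, 563 and 49 cells of WT mice and 159, 5 and 30 cells of ArcSwe mice. The remaining microglia thus drew on these clusters in different proportions in WT and ArcSwe mice. These values describe clusters and were not tested, nor was the part of this difference in the genotype values without low-ribosomal cells.

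For no member was the change with genotype detectably different in microglia and in capillary cells. With both classes in 1 fit 0 of 10 members were called, and 0% of the 13141 genes, while 1 member had an unadjusted p under 0.05, as did 9.84% of all genes. This was *Hmox1*, whose effect was lower in microglia by 0.72 on the log2 scale (SE 0.28, unadjusted p = 0.0276 and adjusted p = 0.470 in edgeR). The difference of *Slc40a1* was -0.54 (SE 0.27, adjusted p = 0.546 in edgeR), and without the low-ribosomal microglia it was -1.02 (SE 0.29, adjusted p = 0.156 in edgeR).

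Other genes of iron and haem were read from 2 lists. The wider list held 40 genes and the list of targets of NRF2 and BACH1, which govern *Hmox1*, *Fth1*, *Ftl1* and *Slc40a1* along with antioxidant genes, held 16. In the genotype fits 0 of the 6 to 27 genes of the wider list tested per class passed in edgeR. Of the 4 to 15 NRF2 and BACH1 targets tested per class 0 passed. An unadjusted edgeR p under 0.05 was found for 0 to 5 genes of the wider list and 0 to 1 of the targets. The 5 were of 24 tested in microglia, where 10.5% of all genes had one, against 3.77% to 4.91% in the other classes. Of 28 genes of the wider list 7 were higher and 10 lower in capillary than in arterial cells, beside 24.5% and 24.6% of all genes. There *Bmp6*, the ligand that induces hepcidin, stood at 1.73 ± 0.684 and 32.1 ± 13.1 CPM (SD, n = 6). The zinc and iron importers crossed over: *Slc39a14* was lower in capillary cells (1.02 ± 0.867 against 8.84 ± 2.55 CPM) and *Slc39a8* higher (134 ± 13 against 34.8 ± 3.73 CPM). In arterial cells *Smad6*, a target and inhibitor of bone morphogenetic protein signalling, was at 199 ± 18.4 CPM, against 61.2 ± 8.79 CPM in capillary cells.

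Venous cells were marked by *Lcn2*, the siderophore-binding lipocalin, at 77.0 ± 40.9 CPM against 3.24 ± 1.29 CPM in capillary cells. Against venous cells 4 of 26 genes of the wider list were higher and 8 lower in capillary cells (14.9% and 17.8% of all genes), the latter with *Ncoa4*, the receptor that delivers ferritin to lysosomes (log2 fold change -0.59), and *Cp*, the ferroxidase ceruloplasmin (log2 fold change -0.41), and *Smad6* was higher (log2 fold change 0.66). Fenestrated cells had 308 ± 72.0 CPM of *Bmp6* against 1.73 ± 0.684 CPM in capillary cells, and more *Slc39a14* (log2 fold change of capillary against fenestrated cells -4.47), while *Flvcr2*, a choline transporter of the barrier once taken for a haem carrier, was at 9.97 ± 11.1 CPM against 119 ± 12.0 CPM. The erythroid gene *Alas2* was higher in fenestrated cells with a spread above its mean (10.9 ± 14.3 CPM), beside the erythroid RNA named above. In all, 9 of 27 genes were higher and 10 lower in capillary than in fenestrated cells, beside 20.5% and 21.2% of all genes.

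In pericytes against smooth muscle cells 5 of 26 genes of the wider list were higher and 10 lower (17.1% and 20.6% of all genes). In microglia against capillary cells 5 of 27 were higher and 12 lower (36.1% and 39.2%), and in perivascular macrophages against microglia 3 of 24 were higher and 1 lower (1.77% and 4.47%). *Bmp6* had the largest change in mural cells, at 1.43 ± 2.22 CPM in pericytes and 35.3 ± 8.49 CPM in smooth muscle cells, followed by *Smad6* and *Id1* (log2 fold changes -2.44 and -2.30) and *Slc39a8* (2.00). Microglia had less *Flvcr2*, *Id1* and *Cp* (log2 fold changes -5.32, -5.21 and -4.00) and more *Slc39a14* (4.01) than capillary cells. *Cd163*, the receptor for haemoglobin and haptoglobin, was at 586 ± 130 CPM in macrophages (SD, n = 2) and at 0.0529 ± 0.130 CPM in microglia (n = 6), and macrophages had more *Blvrb* and *Cp* (log2 fold changes 3.05 and 2.75) and less *Smad7* (-4.46).

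Of 15 NRF2 and BACH1 targets tested, 2 were higher and 12 lower in capillary than in arterial cells, where 24.5% and 24.6% of all genes were. Their median was -0.30 on the log2 scale, and that of all genes 0.02. Against venous cells 2 of 16 were higher and 7 lower (14.9% and 17.8% of all genes), and against fenestrated cells 1 of 15 was higher and 7 were lower (20.5% and 21.2%). Between pericytes and smooth muscle cells 1 of 10 was higher and 1 lower (17.1% and 20.6% of all genes), and between microglia and capillary cells 8 and 7 of 16 were (36.1% and 39.2%). Of 14 tested between macrophages and microglia, 0 were higher and 1 was lower in edgeR (1.77% and 4.47%). An unadjusted edgeR p under 0.05 was found for 3 of them, beside 1391 of all 8765 genes tested.

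Genes with the most similar pattern of levels over the 8 classes were sought among 6723 genes. Pearson's r of the log2 levels was highest for *Tfrc* with *Max* (0.973), *Arl4a* (0.969) and *Igf1r* (0.967), and for *Slc40a1* with *Grap* (0.974), *Ifnar1* (0.964) and *Dapk1* (0.956). *Trf* was most like *Cd68* (0.997), *Slc9a9* (0.997) and *Ptpn6* (0.996), *Hmox1* like *Atf6*, *Tcof1* and *Tmem230* (0.992 to 0.985), *Ftl1* like *Tmem192*, *Nufip1* and *Snx2* (0.985 to 0.977), and *Fth1* like *Arf3*, *Sdc4* and *Dusp1* (0.948 to 0.935). The 8 points are classes of the same 6 libraries, and the values are a description.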

How the data were processed

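Single-cell RNA-seq libraries of 3 WT and 3 *TgApp* ArcSwe mice were used. The authors aligned reads with Cell Ranger (7.0.0, per the submitters' processing notes) to mm10 and deposited raw UMI counts per gene and cell. Members and gene lists were chosen with earlier results of these data known. Named genes are the 10 members, and of the wider list those called for genotype or, between classes, the 4 called with the largest change.

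Cells with 500 to 4500 genes and under 10% mitochondrial UMIs were kept, as in the study. Doublets were not called; clusters with markers of 2 classes (2030 cells) were set aside. Leiden clustering (resolution 1, 30 components, leidenalg 0.10.2) left out the iron genes. Endothelial cells with a *Cx3cr1* or *Aif1* UMI (5009 of 26563 in named zones) were removed, and genes of ribosomal proteins and mitochondria, pseudogenes and Rik genes were excluded, after the study. Unlike in the study, low-ribosomal microglia were kept in the main fits, and they were left out only as an alternative. Counts were summed per mouse and class (at least 10 cells) and fitted in edgeR 4.0.16 (TMM, filterByExpr), with mouse as a block in contrasts between classes. DESeq2 1.42.0, the test of the study, and other settings were alternatives. Libraries come from separate mice. Intervals cover counting error only. In simulated capillary counts edgeR recovered 134 of 200 genes changed by 1 on the log2 scale, with 6 false calls. In microglia it recovered 1 of 200, with 1 false call. Changes under 1, such as those of all members in capillary cells, were not simulated.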

Additional observations from a re-analysis of the deposited data

How the results depend on the processing

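The genotype results for the 10 members kept their side of the threshold under every setting run. Over all genes, the number called for genotype moved with the setting. In arterial cells it was 1, with 15 in DESeq2, 123 without a filter on low counts, and 0 to 2 with 1 mouse left out. In capillary cells it was 0, with 8 in DESeq2 and 3 without a filter. In venous cells it was 0, with 3 in DESeq2 and 96 without a filter. In fenestrated cells it was 0, with 40 without a filter, 1 when endothelial cells with a *Cx3cr1* or *Aif1* UMI were kept, and 0 to 1 with 1 mouse left out. It was 0 in pericytes and smooth muscle cells, with 9 and 70 without a filter and 1 in DESeq2 in smooth muscle cells. In microglia it was 20, with 38 under RLE normalization, 177 in DESeq2, 242 without a filter, 382 without the low-ribosomal cells and 2 to 909 with 1 mouse left out, 909 without WT replicate 3, 52 without ArcSwe replicate 2 and 2 without each of the other mice. The count for the difference between microglia and capillary cells was 0, with 37 without the low-ribosomal cells and 0 to 12 with 1 mouse left out, 12 without WT replicate 3 and 5 without ArcSwe replicate 2. The cause of these shifts was not tested.

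With the replicate number as a block the counts called for genotype were 7 in arterial, 2 in capillary, 1 in venous and 2 in fenestrated cells, 0 in pericytes, 1 in smooth muscle cells and 39 in microglia, with 0 members. The numbers were not taken to pair the mice: the deviations of same-numbered mice correlated at 0.125, 0.155 and 0.393 in capillary cells, 0.098, 0.171 and 0.326 in smooth muscle cells and 0.335, -0.092 and 0.167 in microglia, and not every mouse correlated best with its own number. All 3 pairs passed 0.1 in capillary cells alone, a class singled out here after these correlations were seen. With the block there *Tfrc* was 0.36 (SE 0.10, adjusted p = 0.594 in edgeR) and *Slc40a1* 0.30 (SE 0.10, adjusted p = 0.678 in edgeR). *Trf* was 0.73 (SE 0.20, adjusted p = 0.566 in edgeR), and without the block it ranged from -0.12 to 1.74 with 1 mouse left out.

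Between classes, thinning to 1000 UMIs lowered the genes called from 6013 to 2993 in capillary against arterial cells, from 3923 to 1637 against venous, from 4873 to 2203 against fenestrated cells, from 3813 to 1949 in pericytes against smooth muscle cells and from 547 to 293 in macrophages against microglia. DESeq2 called 2441 against venous cells and 188 in macrophages, WT mice alone gave 2590 against venous cells and 2406 in mural cells, and adding 55 macrophages led by MHC class II genes gave 887. Members called against fenestrated cells were 7, with 4 in WT mice alone, 2 after thinning and 4 to 7 with 1 mouse left out. In mural cells they were 4, with 2 in WT mice alone, 2 after thinning and 2 to 4 with 1 mouse left out. In macrophages they were 1, with 2 under RLE normalization or without low-ribosomal microglia and 3 with the added macrophages. Leaving out a mouse there, or WT mice alone, could not be fitted.

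Of the genotype values, *Ftl1* in microglia turned to 0.16 without low-ribosomal cells and 0.0231 with a stricter cell filter, and *Trf* to 0.52 and 0.18. With 1 mouse left out the log2 fold change ranged from -0.0181 to 0.27 for *Tfrc* in arterial cells, -0.0871 to 0.15 for *Ftl1* and -0.12 to 1.74 for *Trf* in capillary cells, -0.12 to 0.0114 for *Trf* and -0.086 to 0.63 for *Tfrc* in microglia, and -0.16 to 0.58 for the difference of *Fth1* between microglia and capillary cells. The genotype difference of the log2 ratio of *Fth1* to *Ftl1* ranged from -0.0716 to 0.0856 in arterial, -0.0395 to 0.16 in capillary, -0.19 to 0.26 in venous and -0.12 to 0.0222 in smooth muscle cells, and that of *Tfrc* to *Slc40a1* from -0.0379 to 0.14 in capillary cells, -0.0478 to 0.0755 in venous cells and -0.0803 to 0.81 in microglia. Between classes, of 382 values of members that were called or singled out, 342 kept their side of the threshold, 33 lost it, 7 gained it and 0 changed sign. Members that were not called did change sign in some contrasts, as *Hmox1* (-0.33 to 0.10), *Trf* (-0.15 to 0.53) and *Slc11a2* (-0.12 to 0.37) in capillary against arterial and *Ireb2* (-0.45 to 0.19) in capillary against fenestrated cells. The shares of cells with a UMI rose with depth, for *Trf* in microglia from 36.0% at 1000 UMIs to 59.8% at 2000, where *Tfrc* was seen in 13.1% of arterial, 45.8% of capillary and 46.9% of venous cells and *Slc40a1* in 17.9%, 44.3% and 47.8% of these and 13% of microglia. The settings on unzoned and low-ribosomal endothelial cells, on macrophages led by MHC class II genes and on low-ribosomal microglia in the contrasts between classes were chosen after seeing the data.

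Depth limits pericytes (2 members tested), fenestrated cells (4) and macrophages most. In microglia, simulation at these sample sizes recovered 1 of 200 genes changed by 1 on the log2 scale in edgeR and 36 in DESeq2.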

Other observations

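Some cells outside the comparisons also held the 10 genes. Endothelial cells of no called zone (2930 cells) had 188 CPM of *Tfrc* and 202 CPM of *Slc40a1*, between the arterial and capillary levels, and 3.03 CPM of *Steap3*. Choroid plexus epithelium (91 cells) had 307 CPM of *Trf* (exact 95% Poisson interval 266 to 352), 2977 CPM of *Fth1* and 630 CPM of *Ftl1*. The 55 macrophages led by MHC class II genes, which were given no name, had 8319 CPM of *Fth1* (7848 to 8811) and 14.3 CPM of *Slc40a1* (1.73 to 51.6), from 2 UMIs, against 259 CPM (174 to 369) in the 41 perivascular macrophages, from 30 UMIs. B cells had 78.9 to 243 CPM of *Tfrc*, and *Fth1* there was 2583 to 3631 CPM. These values were not tested, and the intervals cover counting error only.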
